A study of Mus musculus with 18 samples.

Results

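A stretch of 13.3 Mb on mouse chromosome 11 (build GRCm38) gave 96 of the 34745 genes in the deposited table. Of the 224 genes lying wholly in the interval, 100 had at least 180 counts summed over 18 libraries, 4 of these were set aside by the start of their names, and 124 fell under the count threshold. The stretch was selected on the differences in counts between the Zmat1 knockout (KO) and wild-type (WT) labels of these same libraries at each day, so those differences, and the counts of genes past a threshold on them, are a description of the values that chose the stretch and support nothing. All 96 genes passed the filter on low counts that was applied to the whole table. They ran from Rnf145 (chr11:44518964-44565520) to Galnt10 (chr11:57645442-57787514). The nearest genes with enough counts outside were Ublcp1, which ended at 44470498, and 2010001A14Rik, which began at 57795499. The member with the fewest counts was Gm12220 with 210, and the gene just under the threshold was Btnl9 with 177. By annotation 94 members code for protein, 1 is a processed transcript and 1 is an unprocessed pseudogene.

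The RNA came from macrophages cultured from mouse bone marrow in the presence of their growth factor, M-CSF. The mice were Zmat1 knockouts (a germline knockout, per the study's methods, on a C57BL/6 background) and wild-type littermates a few weeks old. RANKL, the cytokine that turns these cells into bone-resorbing osteoclasts, was given for 0, 1 or 3 days, and each of the 6 groups of label and day held 3 libraries, all of which had received M-CSF. The labels do not say whether the 3 libraries of a group came from separate animals, so the p-values given here measure the spread between libraries, which may be technical.

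The interval holds several groups of genes that are familiar in macrophage biology. Immunity-related GTPases are switched on by interferons and act on the membranes around pathogens inside the cell, and their genes lie side by side as near-identical copies. Further along lie Irf1, a transcription factor of the interferon response, the carnitine and organic cation transporter genes Slc22a4, Slc22a5 and Slc22a21, and the receptors for dying cells and T cells Timd4 and Havcr2. The interval ends with genes of the extracellular matrix and of protein glycosylation.

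Library totals ran from 13789775 to 17559958 counts, and the 96 members took 0.7224% to 1.337% of them. Zmat1 itself, on another chromosome, had 49 to 99 counts in the 9 libraries labelled KO and 32 to 91 in the 9 labelled WT, so the targeted gene does not separate the labels, and KO and WT name the labels of the libraries throughout. A double hyphen appeared in the titles of 5 day 0 and day 1 libraries, which include 1 of the pair of WT day 1 libraries that both carry the number 1 (called 1b here). Levels are in CPM (each gene's share of a library's counts, scaled with TMM, the trimmed mean of M values) and are given as mean ± SD over 3 libraries. Macrophage markers (6 genes) summed to 5714 to 11508 CPM in the libraries of days 0 and 1 and to 2698 to 3716 CPM on day 3. Osteoclast markers (6 genes) summed to 92.7 to 677 CPM on days 0 and 1, with Calcr at 0, and to 7408 to 21403 CPM on day 3.

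A small number of the genes in the stretch differed strongly between the labels. To mark them, those with an adjusted p under 0.05 in the edgeR quasi-likelihood fit over 14241 genes are called. Because the stretch was picked for these differences, the shares of all genes stand beside the counts for scale only and nothing is read from them. On day 0, before RANKL, 6 of the 96 members were called, beside 0.119% of all tested genes. Higher in KO were 9930111J21Rik2, Olfr56 and Slc36a1 (higher: 0.0632% of all genes), and lower were Gm12220, Slc22a4 and Tgtp1 (lower: 0.0562%). On day 1 there were 5 (9930111J21Rik2 and Olfr56 higher, Gm12220, Slc22a4 and Lyrm7 lower), beside 0.112% of all genes (0.0632% higher, 0.0492% lower). On day 3 there were 5 as well (9930111J21Rik2, Olfr56 and Galnt10 higher, Gm12220 and Slc22a4 lower), beside 0.14% (0.0843% higher, 0.0562% lower). Over the days 8 members were called on at least 1 day (0.183% of all genes) and 4 on all 3 days (0.0913% of all genes). On the label difference averaged over the days 13 were called, 9 higher and 4 lower, beside 1.59% of all genes (1.14% higher, 0.442% lower). In 5 members (9930111J21Rik2 and Olfr56 higher, Gm12220, Slc22a4 and Tgtp1 lower) the 9 KO libraries did not overlap the 9 WT libraries on any day, as in 0.176% of all tested genes (0.0913% higher, 0.0843% lower). Gm12220, at 0 counts in KO, entered the stretch through its WT counts alone. Olfr56 and 9930111J21Rik2, at no more than 5 and 14 counts in any WT library, reached the count threshold only through KO. Tgtp1 reached it only with its WT counts. Leaving out any 1 of the day 3 libraries left 2 or 3 of the 5 calls of that day, and fitting only the groups compared gave 2, 1 and 12 calls on days 0, 1 and 3.

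Markers of other cells also differed on average between the labels, though the libraries overlapped in many cases. All 6 neutrophil markers were higher on average in KO on each day, with sums of 1608 to 6370 CPM in KO and 299 to 1478 CPM in WT on day 0, 668 to 1566 and 177 to 852 CPM on day 1, and 51.6 to 677 and 21.2 to 38.9 CPM on day 3. No neutrophil marker was at 0 in a whole group. Of 6 stromal or osteoblast markers 5 were tested and all 5 were higher on average in KO on each day, as were all 3 tested of 4 eosinophil or mast cell markers, which summed to 24.7 to 236 CPM in KO and 4.1 to 32.6 CPM in WT on day 0. The eosinophil or mast cell sums overlapped between the labels on every day, and the stromal sums on days 0 and 1. Of 6 T or NK cell markers only 1 was tested, and it was lower in KO on day 0 and higher on days 1 and 3. Of 6 B cell markers 5, 2 and 6 were higher in KO on days 0, 1 and 3, with Ms4a1 and Pax5 at 0 in WT on day 3. Of 6 osteoclast markers 5 were higher in KO on day 0, 1 on day 1 and 0 on day 3, and of 6 macrophage markers 1, 3 and 2 were. None of these markers was called between the labels. The part of these cells in the label differences was not tested.

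**Figure D1:**
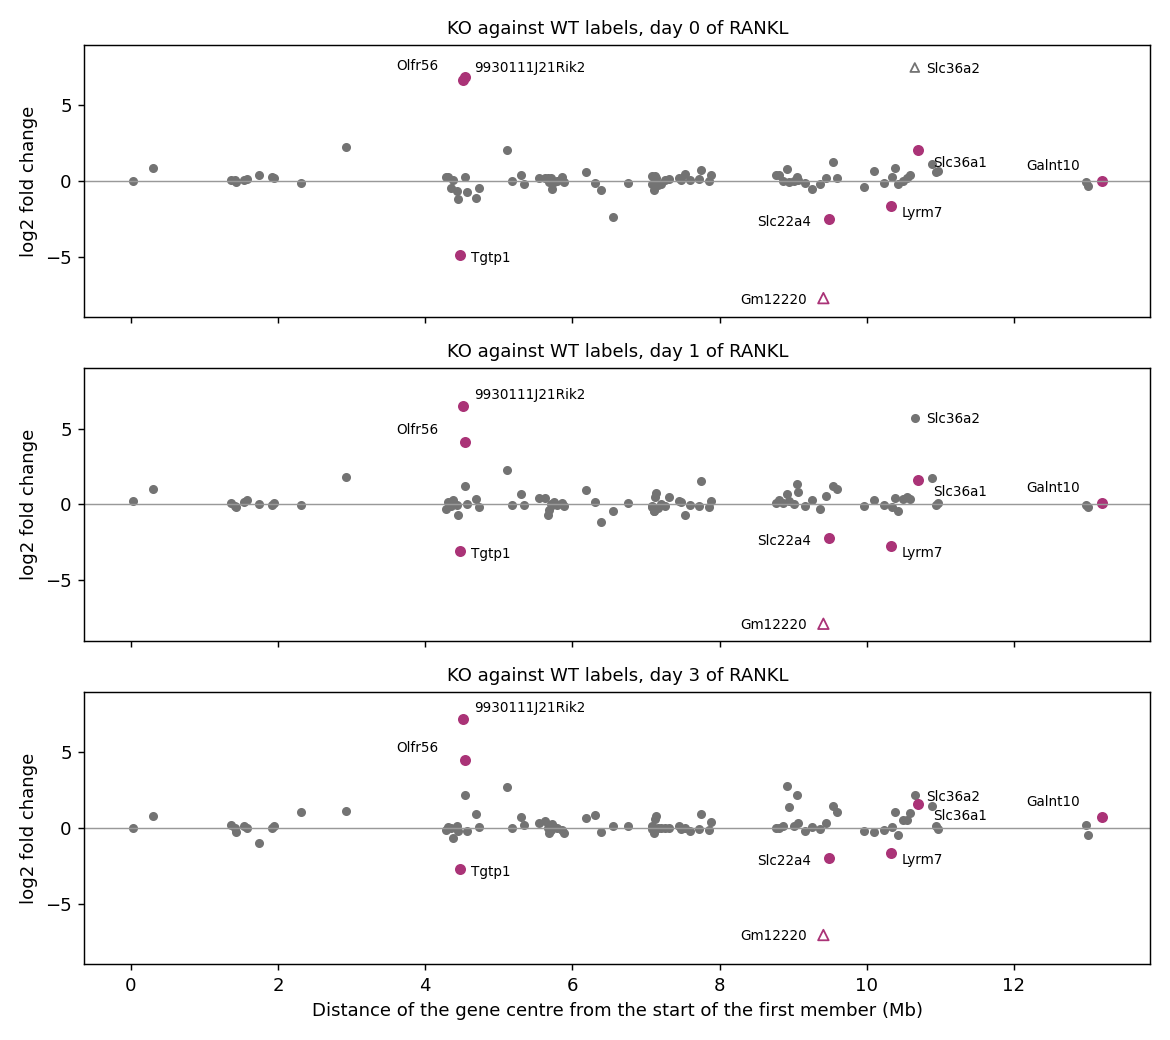
Log2 fold change of KO against WT labels for the 96 members (vertical axis) by distance of the gene centre from the start of the first member (horizontal axis, Mb), with 1 panel for each day of RANKL. Purple points are the 8 members called on any day, and open triangles are genes with 0 counts in 1 of the 2 groups, whose fitted value is no measured fold. The differences of the 8 called members point both ways, sit at separate places along the stretch and keep their sign over the days. Galnt10 is near 0 on days 0 and 1. Most members lie near 0, and some others turn, such as Zfp354a at -2.39 on day 0 and 0.14 on day 3.

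The differences were not spread evenly along the interval. The GTPase cluster held Tgtp1, 9930111J21Rik2 and Olfr56, the transporter interval held Gm12220 and Slc22a4, Lyrm7 and Slc36a1 followed, and Galnt10 closed the stretch. The median label difference averaged over the days was a log2 fold change of 0.06 over the 96 members and -0.00 over all tested genes, and its median absolute size was 0.21 against 0.15. In the regions of the same length before the stretch (35 tested genes) and after it (190 tested genes) no gene had its 9 KO libraries apart from its 9 WT libraries, and 1 and 0 genes were called on day 0. The median absolute size was 0.18 before the stretch and 0.11 after it. Within 5 Mb of Trim46 on chromosome 3 (113 tested genes) it was 0.19. There 2 genes had their 9 KO libraries apart from their 9 WT libraries, and 3, 3 and 2 genes were called on days 0, 1 and 3.

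In the GTPase cluster 9930111J21Rik2, Tgtp1 and Olfr56 did not overlap between the labels on any day. The gene 9930111J21Rik2 (ENSMUSG00000069892, chr11:49015874-49051242), a member of the interferon-inducible GTPase cluster, was read at 97.5, 47.0 and 72.1 CPM in the KO libraries on day 0 and at 0.742, 0.464 and 0.858 CPM in the WT libraries. On day 1 it measured 97.0, 69.0 and 61.6 CPM in KO and 0.842, 1.08 and 0.62 CPM in WT. On day 3 the values were 22.9, 16.4 and 28.4 CPM in KO and 0.103, 0.235 and 0.112 CPM in WT. Every KO library thus lay above every WT library by more than 10-fold, and the log2 fold changes were 6.69 (SE 0.379), 6.48 (SE 0.370) and 7.17 (SE 0.426) on days 0, 1 and 3. The WT levels rest on few counts, at 9, 6 and 12 on day 0, 14, 13 and 9 on day 1 and 2, 4 and 2 on day 3.

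Its neighbour Tgtp1 (T cell-specific GTPase 1, ENSMUSG00000078922, chr11:48985327-48994172) went the other way. On day 0 it measured 1.71, 1.15 and 0.801 CPM in KO and 32.1, 9.29 and 69.4 CPM in WT. The KO values were 3.14, 1.29 and 1.39 CPM on day 1 and 0.893, 0.612 and 0.623 CPM on day 3, and the WT values were 16.3, 19.9 and 13.3 CPM and 4.13, 5.70 and 4.26 CPM. All 9 KO libraries lay below all 9 WT libraries, with log2 fold changes of -4.91 (SE 0.617), -3.08 (SE 0.566) and -2.71 (SE 0.597).

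Olfr56 (ENSMUSG00000040328, chr11:48978889-49135387) is named as an olfactory receptor gene, but its annotated locus spans the GTPase copies, and 111 bases of its exons overlap exons of Ifi47 on the same strand. It had 134, 85 and 57 counts in the KO libraries on day 0 and 0, 2 and 0 in the WT libraries, a ratio of 132 (95% interval of the counting error 32.4 to 1228). On day 1 it had 118, 63 and 32 counts in KO and 2, 4 and 5 in WT, and on day 3 37, 36 and 20 in KO and 3, 1 and 0 in WT. The labels did not overlap on any day, though the levels were low (6.75 ± 2.71 CPM in KO on day 0). Intervals and floors here cover counting error only.

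**Figure D2:**
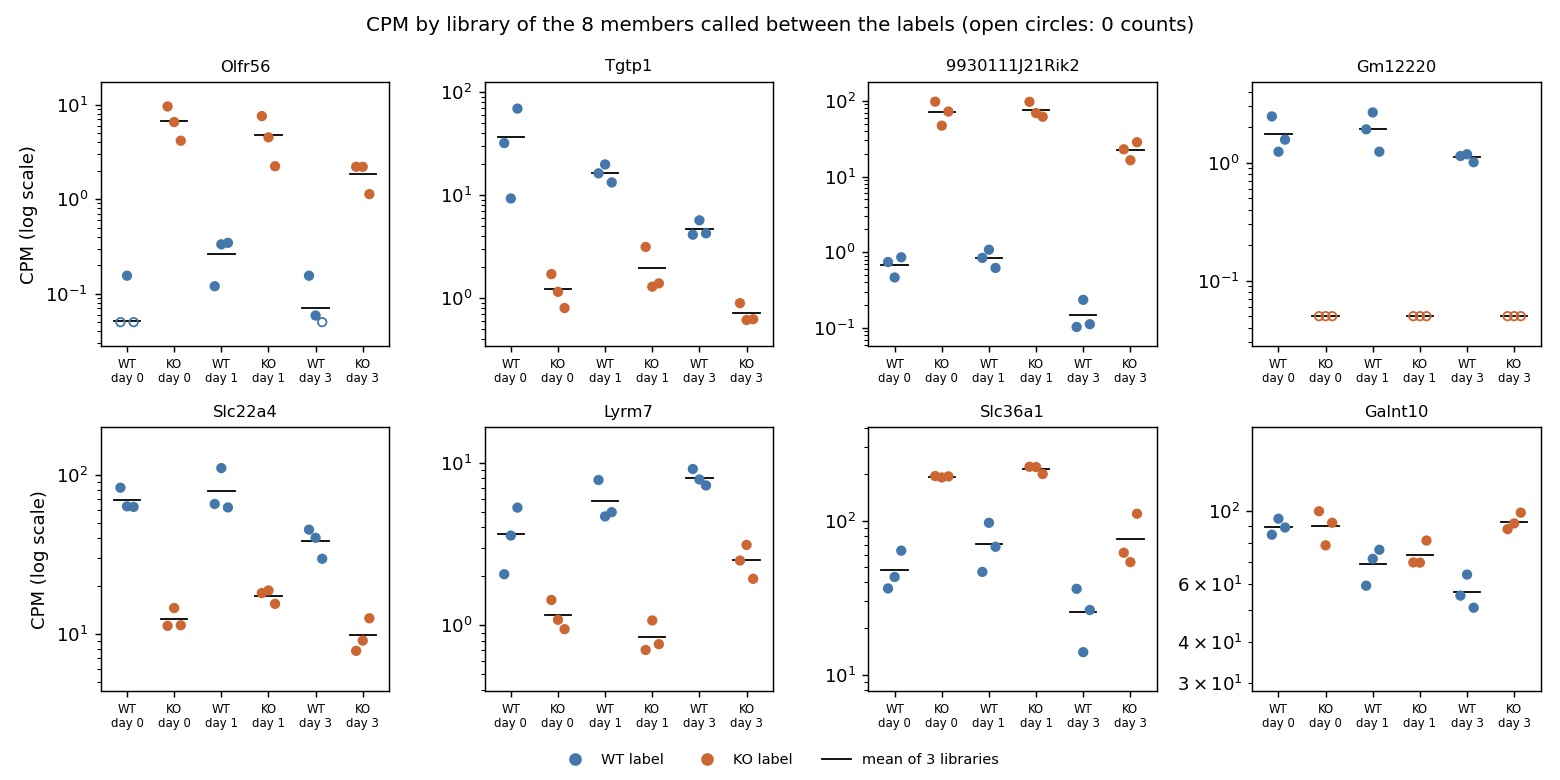
CPM on a log scale (vertical axis) in each library for the 8 members called between the labels on any day, by label and day (horizontal axis). Points are libraries, lines are means of 3, and open circles mark 0 counts. In Olfr56 and 9930111J21Rik2 every KO library is above every WT library, in Tgtp1, Gm12220 and Slc22a4 every one is below, and Galnt10 parts on day 3 only.

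The other genes of the cluster differed less. Irgm1, a GTPase that regulates the family, measured 217 ± 49.6 CPM in KO and 304 ± 140 CPM in WT on day 0, with overlapping libraries on every day (log2 fold changes of -0.49, -0.08 and 0.00). Ifi47, an interferon-gamma-induced GTPase, measured 130 ± 44.6 CPM in KO and 214 ± 105 CPM in WT on day 0 and overlapped on every day. The predicted GTPase Gm5431 (95.1 ± 58.1 and 91.4 ± 13.9 CPM) overlapped on every day, and Gm12185 (3.69 ± 0.55 and 5.97 ± 1.83 CPM) parted on day 0 only. Over the 9 members of the GTPase list the median label difference was -0.49, 0.04 and 0.00 on the log2 scale on days 0, 1 and 3, beside 0.02, -0.02 and 0.02 over all tested genes.

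Near-identical copies set a limit on what a count of a single gene means in this cluster. Of all 50-base stretches in the transcripts of Tgtp1, 79.4% also occur in Tgtp2, and 85.8% of those of Tgtp2 occur in Tgtp1. The transcripts of 9930111J21Rik1 share 80.4% of theirs with 9930111J21Rik2, which shares 56.1% of its own in return. Olfr56 shared 1.37% with Ifi47. Reads from such stretches can be assigned to either copy, and how the counting program treated them was not stated.

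Tgtp2 did not follow Tgtp1. It measured 75.8, 32.0 and 45.6 CPM in KO and 39.5, 12.5 and 74.4 CPM in WT on day 0, which overlap. On day 3 it measured 23.5, 22.2 and 15.6 CPM in KO and 5.01, 4.88 and 3.82 CPM in WT, with every KO library higher. Summed, Tgtp1 and Tgtp2 came to 52.3 ± 22.8 CPM in KO and 79.0 ± 61.4 CPM in WT on day 0 and to 44.7 ± 32.9 and 34.5 ± 3.98 CPM on day 1, with overlapping labels, and to 21.2 ± 4.33 and 9.27 ± 1.26 CPM on day 3, without overlap. On no day was the sum of the copies lower in every KO library, as Tgtp1 was.

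The other pair gave a different picture. The copy 9930111J21Rik1 measured 26.3 ± 14.6 CPM in KO and 59.1 ± 21.6 CPM in WT on day 0, with every KO library lower on days 0 and 1. The sum of 9930111J21Rik1 and 9930111J21Rik2 was 98.5 ± 39.8 CPM in KO and 59.7 ± 21.8 CPM in WT on day 0, with overlap. It was 103 ± 23.2 and 44.3 ± 6.94 CPM on day 1 and 32.3 ± 7.83 and 11.5 ± 3.74 CPM on day 3, without overlap. The log2 ratio of the mean sums was 0.72, 1.22 and 1.49 on days 0, 1 and 3.

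**Figure D3:**
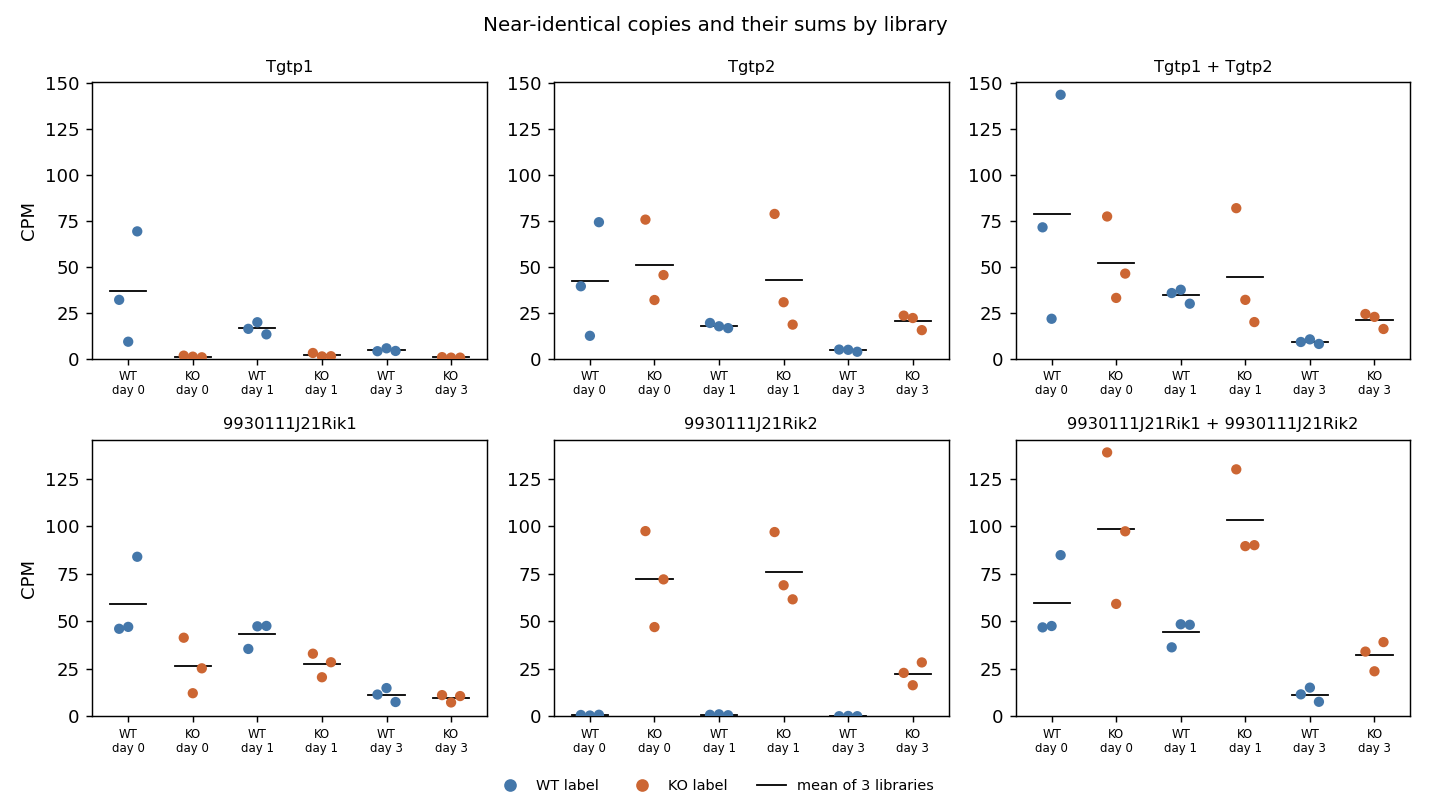
CPM (vertical axis, linear) in each library for Tgtp1, Tgtp2 and their sum (upper row) and for 9930111J21Rik1, 9930111J21Rik2 and their sum (lower row), by label and day (horizontal axis). Points are libraries and lines are means of 3. The labels part in Tgtp1 and in 9930111J21Rik2 on every day, while the sums overlap on day 0, and the Tgtp sum also on day 1.

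Slc22a4 (ENSMUSG00000020334, chr11:53983123-54028090), which codes for the ergothioneine and organic cation transporter OCTN1, was lower in every KO library. On day 0 it measured 11.2, 14.5 and 11.3 CPM in KO and 82.8, 63.2 and 62.7 CPM in WT, on day 1 18, 18.7 and 15.4 CPM and 65.4, 110 and 62.2 CPM, and on day 3 7.80, 9.05 and 12.5 CPM and 45.1, 40.1 and 29.6 CPM. On days 0 and 3 the gap between the labels in CPM was wider than the range of either label, and on day 1 the WT range was wider than the gap. Slc22a4 was 5.64-fold, 4.57-fold and 3.91-fold lower in KO on days 0, 1 and 3. Only 2.64% of its 50-base stretches occur in other genes.

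Its relatives showed no such gap. Slc22a5, the carnitine transporter OCTN2, measured 14.7 ± 2.11 CPM in KO and 16.6 ± 2.09 CPM in WT on day 0 and overlapped on every day. Slc22a21, a related carnitine transporter, measured 2.48 ± 0.0635 and 2.13 ± 0.37 CPM, and parted on day 3 only, with KO higher. The sum of the 3 genes stayed lower in KO in all 9 libraries (29.5 ± 1.07 against 88.4 ± 10 CPM on day 0, 29.4 ± 1.52 against 58.2 ± 7.33 CPM on day 3).

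Between Slc22a5 and Slc22a21 lies Gm12220 (ENSMUSG00000081098, chr11:53929305-53929476), the short unprocessed pseudogene. It had 0 counts in all 9 KO libraries. In WT it had 30, 16 and 22 counts on day 0, 32, 32 and 18 on day 1 and 22, 20 and 18 on day 3. Taking 3 counts in each KO library as the floor, it was at least 7.97-fold, 9.47-fold and 6.24-fold lower in KO. Of its 50-base stretches 39.8% occur in Slc22a4. Its level over the 18 libraries was most like that of Slc22a4 (Pearson r of log2 CPM 0.96), then opposite to 9930111J21Rik2 (-0.91) and like Tgtp1 (0.91), and all of these genes belong to the 5 whose labels do not overlap.

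Lyrm7 (ENSMUSG00000020268, chr11:54826866-54860916), which helps assemble complex III of the respiratory chain, was lower in KO on each day. On day 0 it measured 1.43, 1.08 and 0.946 CPM in KO and 2.06, 3.56 and 5.29 CPM in WT, on day 1 0.705, 1.07 and 0.765 CPM and 7.82, 4.67 and 4.96 CPM, and on day 3 2.50, 3.12 and 1.93 CPM and 9.14, 7.88 and 7.24 CPM. No day's libraries overlapped, and it was 3.15-fold, 6.83-fold and 3.21-fold lower, but KO libraries of day 3 reached above the lowest WT library of day 0.

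Slc36a1 (ENSMUSG00000020261, chr11:55204350-55236330) codes for a proton-coupled amino acid transporter of the lysosome. It measured 195, 191 and 194 CPM in KO and 36.3, 43.1 and 63.9 CPM in WT on day 0, and 224, 223 and 201 CPM and 46.5, 96.9 and 67.7 CPM on day 1. On day 3 it measured 61.9, 53.8 and 111 CPM in KO and 36.1, 14 and 26.3 CPM in WT. KO was higher in every library of each day, by 4.05-fold, 3.07-fold and 2.97-fold. Slc36a2, the adjacent family member, was at 15, 25 and 20 counts in KO and 0 in all WT libraries on day 0, at least 6.41-fold higher, and at 48, 47 and 80 counts against 3, 0 and 0 on day 1, a ratio of 57.3 (95% interval 16.8 to 322). It was not called by the edgeR test on any day, and its libraries overlapped on day 3.

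Galnt10 (ENSMUSG00000020520), which starts O-linked glycosylation in the Golgi, was called on day 3 only, at 88.2, 91.8 and 99.0 CPM in KO and 55.3, 64.1 and 50.8 CPM in WT. On day 0 the means were 90.3 ± 10.8 and 89.7 ± 5.04 CPM. The day 3 call was lost in 9 of 15 alternatives, among them 5 of the 6 that leave out a day 3 library, no filter, the replicate block and both FPKM fits, with the log2 difference between 0.62 and 0.81 in all 15.

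Among members not called on a single day, Pdlim4, an actin-binding adaptor, was higher in every KO library of each day. It measured 178, 192 and 170 CPM in KO and 59.3, 103 and 66.4 CPM in WT on day 0, 184, 186 and 117 against 62.2, 87.7 and 62.8 CPM on day 1, and 84.2, 61.4 and 96.0 against 29.1, 44 and 15.6 CPM on day 3. The same held for 9530068E07Rik, at 213 ± 25.7 CPM in KO and 164 ± 19.4 CPM in WT on day 0. Both were chosen after their values were seen, as was Flt4, a receptor of lymphatic endothelium, with 2.69 ± 1.8 CPM in KO and 0.646 ± 0.581 CPM in WT on day 0 and no overlap on days 1 and 3. On day 0 KO and WT did not overlap in 25 members (13 higher, 12 lower), as in 10.1% of all tested genes (4.9% higher, 5.22% lower). On day 1 this held for 22 members (15 higher, 7 lower) beside 12.6% (6.83% and 5.82%), and on day 3 for 38 (26 higher, 12 lower) beside 29.2% (15.9% and 13.3%).

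RANKL itself was not used to choose the stretch, and its effect was tested. From day 0 to day 3, averaged over the labels, 64 of the 96 members changed, 27 higher and 37 lower (edgeR, adjusted p under 0.05), which is 66.7% of them beside 62.9% of all tested genes. By direction, 30.9% of all tested genes rose and 32% fell. Among the members counted as higher, Sgcd and Zfp354a reached the count threshold only with their day 3 counts, so their rises are descriptions only. The median change was -0.14 on the log2 scale over the members and -0.02 over all genes. On the deposited FPKM values (fragments scaled by gene length and library size) the median of all genes moved up by 0.33 on the log2 scale relative to the count fit, and the split became 42 higher and 29 lower, with Galnt10 and Clint1 turning direction. Within the WT libraries alone 58 members changed, 24 higher and 34 lower, beside 50.2% of all genes (23.7% and 26.5%). Within the KO libraries alone 46 changed, 19 higher and 27 lower, beside 42.5% (20.2% and 22.3%).

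The GTPase cluster fell together after 3 days of RANKL. Of its 9 members 8 fell, beside 32% of all tested genes, and Olfr56 did not pass the test (log2 -0.71, SE 0.817, adjusted p = 0.462). The median of the 9 was -1.92 on the log2 scale beside -0.02 over all tested genes. Ifi47 fell by 2.70 on the log2 scale (SE 0.313, adjusted p = 5.58e-06), from 214 ± 105 to 27.6 ± 5.83 CPM in WT and from 130 ± 44.6 to 23.8 ± 6.21 CPM in KO. Irgm1 fell by 1.74 (SE 0.244, adjusted p = 3.09e-05), from 304 ± 140 to 77.0 ± 10.2 CPM in WT and from 217 ± 49.6 to 77.2 ± 9.53 CPM in KO.

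The day 3 libraries of Ifi47 and Irgm1 all lay below all day 0 libraries. Gm5431 fell by 3.56 (SE 0.405, adjusted p = 4.92e-06), from 75.7, 102 and 96.8 CPM to 15.2, 9.29 and 5.16 CPM in WT and from 146, 31.7 and 108 CPM to 7.33, 4.28 and 7.31 CPM in KO. Gm12185 fell by 2.65 (SE 0.254, adjusted p = 1.23e-06), and the copies Tgtp2, 9930111J21Rik1, 9930111J21Rik2 and Tgtp1 fell by 2.26, 1.91, 1.92 and 1.88 (adjusted p = 0.000239, 3.86e-05, 7.1e-05 and 0.00121, edgeR). The fall of 9930111J21Rik2 was seen from its high level in KO (log2 -1.68, SE 0.281) and from its low level in WT (log2 -2.16, SE 0.530). Olfr56 fell by 1.87 within KO (SE 0.611), where it had more counts. It entered the stretch through those KO counts, so this fall is a description only. On day 1 no member of the list passed the test, beside 7.44% of all tested genes that did, with a median of -0.30. The 6 macrophage markers summed to less on day 3 as well, at the values given above, and the 6 neutrophil markers summed to 51.6 to 677 CPM in KO and 21.2 to 38.9 CPM in WT on day 3. The part of cell make-up in the fall of the GTPases was not tested.

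**Figure D4:**
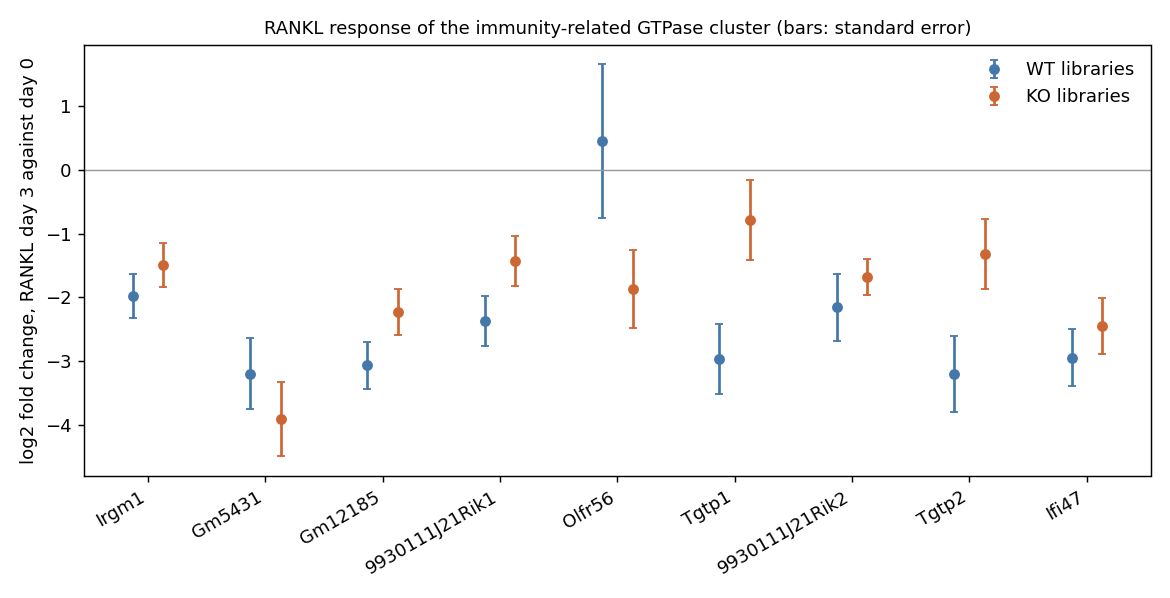
Log2 fold change from day 0 to day 3 of RANKL (vertical axis) of the 9 members of the GTPase list in the order of their start along the chromosome (horizontal axis), in the WT and in the KO libraries separately. Points are estimates from the count fit and bars their standard errors. All estimates are below 0 except that of Olfr56 in WT, which rests on 2 and 4 summed counts.

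The promoters of some but not all of these genes hold the letters of interferon-response motifs, shown here because members of the list fell together. RefSeq promoter windows (build GRCm38.p6, 250 bases before to 50 bases after the start) were matched by symbol for 76 of the 96 members, including all 9 of the GTPase list. On either strand, the core of the interferon-stimulated response element (GAAA, any 2 bases, GAAA) was in the windows of 5 of the 9 (Irgm1, Gm12185, 9930111J21Rik1, Tgtp1 and Tgtp2), and in 3.44% of all 32851 windows of the same length. TTCNNNGAA, the palindrome of the gamma-activated site bound by STAT factors, was in 3 of the 9 (Gm12185, Tgtp1 and Tgtp2), and in 8.3% of all windows. Stretches upstream of the start on the gene's own minus strand follow, with the motif matches in capitals.
Gm12185 (chr11:48927233-48927292): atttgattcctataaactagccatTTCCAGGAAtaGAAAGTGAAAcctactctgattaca
Tgtp1 (chr11:48992299-48992358): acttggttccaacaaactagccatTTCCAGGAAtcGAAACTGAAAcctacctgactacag
Tgtp2 (chr11:49064258-49064317): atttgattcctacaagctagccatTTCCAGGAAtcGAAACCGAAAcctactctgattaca
Irgm1 (chr11:48871421-48871470): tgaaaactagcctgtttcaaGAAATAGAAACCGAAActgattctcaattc
In the first 3 the motifs stand 2 bases apart in the same order, and in Irgm1 a pair of matches to the response element core overlap. The windows of Tgtp1 and Tgtp2 were 66.8% identical and those of 9930111J21Rik1 and 9930111J21Rik2 89.3%. The match in 9930111J21Rik1 begins 26 bases after the start. Windows of copies are offset against each other, so a motif can lie outside the window of a copy. The windows of Gm5431 and Ifi47, which fell most of the list, held neither motif, nor did those of 9930111J21Rik2 and Olfr56. Matches in windows of like sequence are not separate from each other, so nothing is read from their number beside the shares of all windows. A match is a description of letters, and binding was not measured.

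Irf1 (ENSMUSG00000018899), the interferon regulatory factor of the neighbouring cytokine interval, also fell, from 119 ± 32.0 to 31.2 ± 4.62 CPM in WT and from 83.5 ± 9.49 to 33.1 ± 2.08 CPM in KO (log2 -1.63, SE 0.186, adjusted p = 4.99e-06). Of the 5 members of that interval's list, 3 fell (Irf1, the kinesin gene Kif3a by 1.73 and Pdlim4 by 1.26), beside 32% of all tested genes. Rad50, a DNA repair gene, did not pass the test (log2 0.02), and P4ha2 rose, as did 30.9% of all tested genes. The cytokine genes of the interval (Il3, Csf2, Il4, Il5 and Il13) are not among the members.

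The greatest falls beyond the cluster were in genes read at low levels. Timd4, the TIM-4 receptor for phosphatidylserine on resident macrophages, went from 10.1, 3.48 and 5.36 CPM in WT and 7.49, 6.46 and 3.13 CPM in KO to 0.206, 0.353 and 0.281 CPM in WT and 0.774, 0.551 and 0.453 CPM in KO. Every day 3 library was lower than every day 0 library (log2 -3.85, SE 0.486, adjusted p = 1.21e-05). The growth factor gene Gdf9 fell by 3.66 (SE 0.486, adjusted p = 1.92e-05), from 2.08 ± 1.24 to 0.0766 ± 0.0664 CPM in WT and from 3.53 ± 0.362 to 0.546 ± 0.221 CPM in KO. The transcript A430108G06Rik fell by 3.00 (SE 0.543, adjusted p = 0.000271), from 2.09 ± 1.02 to 0.13 ± 0.12 CPM in WT. Havcr2, which codes for the receptor TIM-3, rose where its relative Timd4 fell, from 7.60 ± 1.97 to 23.0 ± 4.24 CPM in WT and from 8.49 ± 2.58 to 25.6 ± 4.37 CPM in KO (log2 1.59, SE 0.308, adjusted p = 0.000455).

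The members that rose most by the rule for named genes were Sgcd, Sparc, Shroom1, Adamts2 and P4ha2. Sparc, a collagen-binding glycoprotein of bone, measured 18.4, 54.5 and 485 CPM in WT and 510, 192 and 523 CPM in KO on day 0, and 1017, 1202 and 1058 CPM in WT and 2331, 3525 and 3270 CPM in KO on day 3 (log2 2.73, SE 0.652, adjusted p = 0.00224). Adamts2, a procollagen-processing protease, rose from 23.4 ± 31.8 to 131 ± 16 CPM in WT and from 35.9 ± 18.3 to 212 ± 27.0 CPM in KO (log2 2.52, SE 0.609, adjusted p = 0.00239). Sgcd, a sarcoglycan of the muscle membrane, rose from 0.191 ± 0.33 to 2.18 ± 0.628 CPM in WT and from 0.97 ± 0.543 to 4.84 ± 0.867 CPM in KO (log2 2.85, SE 0.580, adjusted p = 0.00068). Without WT day 0 library 3 the log2 changes of Sparc, Adamts2 and Sgcd were 3.93, 3.65 and 5.20, the last of them against WT libraries at 0 counts and so no measured fold.

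Markers of stromal cells and osteoblasts moved with these genes. The 6 markers (Col1a1, Col1a2, Col3a1, Runx2, Sp7 and Bglap) summed to 67 to 3930 CPM in the WT and 846 to 3001 CPM in the KO libraries of day 0, and to 9476 to 12385 CPM in WT and 16432 to 24655 CPM in KO on day 3. In WT day 0 library 3 both the sum, at 3930 CPM, and Sparc, at 485 CPM, were the highest of their group. Bglap was at 0 in every WT library. Ebf1, a transcription factor of B cells and marrow stroma, also rose, from 4.58 ± 5.77 to 17.6 ± 2.56 CPM in WT and from 8.19 ± 4.76 to 30 ± 2.98 CPM in KO (log2 1.90, SE 0.562, adjusted p = 0.00872). The B cell list, which holds Ebf1, summed to 53.4 CPM at most, in a KO library of day 0. In the KO libraries of day 3 it summed to 41.8, 30.9 and 36 CPM, of which Ebf1 itself made 32.9, 27 and 30.1 CPM. The part of B cells in the rise of Ebf1 was not tested. The part of stromal cells in these rises was not tested. In bulk RNA, more cells of a type and more RNA per cell cannot be told apart.

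**Figure D5:**
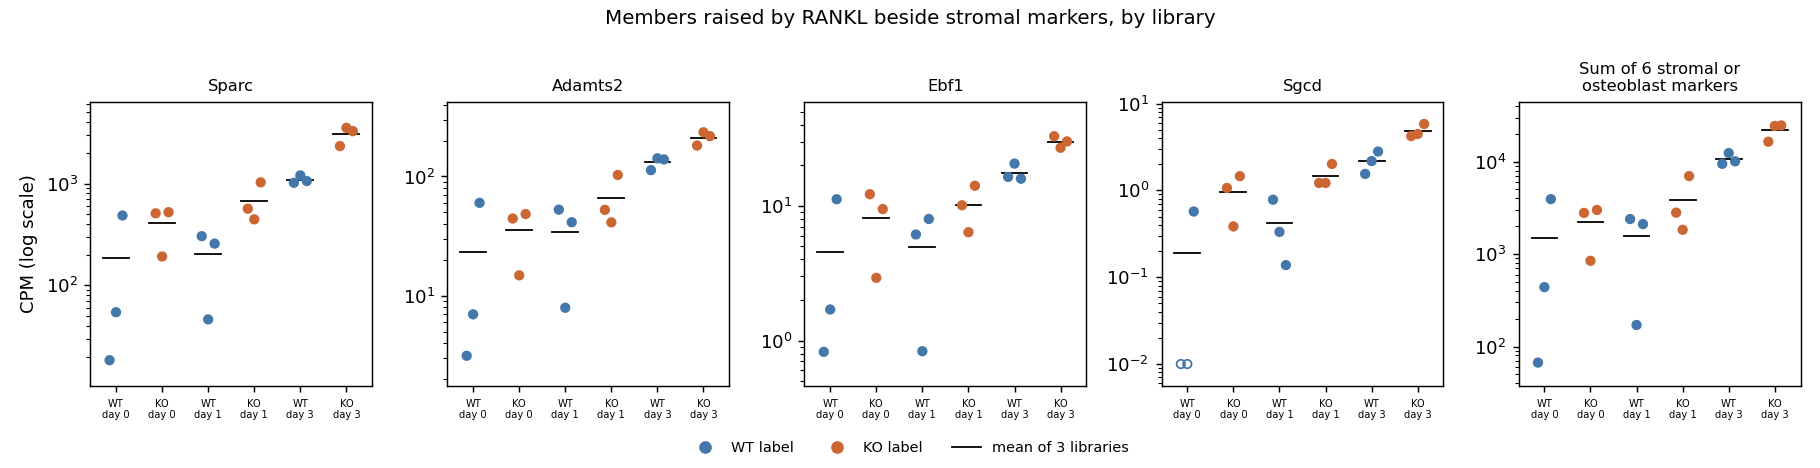
CPM on a log scale (vertical axis) in each library for Sparc, Adamts2, Ebf1 and Sgcd and for the sum of 6 stromal or osteoblast markers, by label and day (horizontal axis). Points are libraries, lines are means of 3, and open circles mark 0 counts. On day 0 the WT libraries spread widely in all 5 panels and library 3 is the highest, and on day 3 every library is above all WT day 0 libraries.

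P4ha2, which hydroxylates prolines of collagen, rose from 10.2 ± 4.28 to 41.1 ± 5.63 CPM in WT and from 11.5 ± 0.803 to 85.6 ± 30.1 CPM in KO (log2 2.45, SE 0.208, adjusted p = 4.67e-07). Shroom1, a regulator of cell shape, rose from 0.273 ± 0.287 to 1.09 ± 0.286 CPM in WT and from 0.268 ± 0.106 to 2.89 ± 0.597 CPM in KO (log2 2.67, SE 0.639, adjusted p = 0.00227), and by 3.26 without WT day 0 library 3. Its day 0 level was low, and whether it reached the count threshold without its day 3 counts is not shown here. In the matrix and surface list 3 of 5 members rose (Sparc, Adamts2 and Sgcd), beside 30.9% of all tested genes that rose and 32% that fell. The rise of Sgcd in this count is a description only. Anxa6, a membrane-binding annexin, fell by 0.33 (adjusted p = 0.0327), and the metalloprotease gene Adam19 did not pass (log2 0.11).

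Of 7 members on the list of RNA handling 5 rose, 1 fell and 1 did not pass, beside 30.9% of all tested genes that rose and 32% that fell, and their median was 0.63 beside -0.02. G3bp1, the stress granule scaffold, went from 66.5 ± 14.6 to 243 ± 28 CPM in WT and from 106 ± 5.86 to 230 ± 30.1 CPM in KO (log2 1.5, SE 0.150, adjusted p = 1.66e-06). Nhp2, a subunit of the complex that modifies ribosomal RNA and of telomerase, rose by 0.96 on the log2 scale (adjusted p = 0.000184), and the RNA-binding protein gene Hnrnpab rose by 0.91 (adjusted p = 0.000178). The splicing kinase gene Clk4 fell by 0.66 (adjusted p = 0.000472).

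Of 12 members on the list of signalling genes 6 fell, 1 rose and 5 did not pass, beside the same shares of all tested genes (32% and 30.9%), and their median was -0.42. Rnf130, a ubiquitin ligase, fell by 1.51 (adjusted p = 5.48e-06) and Mapk9, the stress kinase JNK2, fell by 0.55 (adjusted p = 3.28e-05). Sqstm1, which codes for the autophagy receptor p62, fell by 0.42 (adjusted p = 0.0284), from 794 ± 113 to 648 ± 87.2 CPM in WT and from 764 ± 151 to 522 ± 43.4 CPM in KO, and 17.3% of its exon length overlaps a gene on the opposite strand. Tnip1, an inhibitor of NF-kB, did not pass (log2 0.26, adjusted p = 0.13). Ppp2ca, the catalytic subunit of phosphatase 2A, rose by 0.56 on the log2 scale (adjusted p = 1.56e-05).

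On the list of mitochondria and metabolism 5 of 11 members rose, 1 fell and 5 did not pass, with a median of 0.15, beside the 62.9% of all tested genes that changed. Lyrm7 rose by 1.13 on the log2 scale (SE 0.239, adjusted p = 0.000891), by 1.15 in WT and 1.12 in KO, although its level was lower in KO throughout. Slc36a1 fell by 1.13 (SE 0.244, adjusted p = 0.00107). Vdac1, the channel of the outer mitochondrial membrane, rose by 0.78 (adjusted p = 7.67e-06), and Gfpt2, an enzyme of hexosamine synthesis, rose by 1.98 (adjusted p = 0.00159). Of the transporters, Slc22a4 fell by 0.60 (SE 0.169, adjusted p = 0.0066) and Slc22a5 and Slc22a21 did not pass (log2 0.07 and 0.52).

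On the secretory list 1 of 7 members rose (Sec24a, a coat protein of vesicles leaving the endoplasmic reticulum, log2 0.41, adjusted p = 0.0115), 2 fell (Tbc1d9b by 0.64 and Galnt10 by 0.31) and the chaperone gene Canx did not pass (log2 0.06). On the transcription list 4 of 10 rose, 2 fell and 4 did not pass, so that both lists stand beside the same 30.9% and 32% of all genes. Zfp354c, a zinc finger repressor, rose by 2.27 on the log2 scale (adjusted p = 4.99e-06), Tcf7, a factor of Wnt signalling, by 1.56 (adjusted p = 0.00856), and Maml1, a Notch coactivator, fell by 0.53 (adjusted p = 2.17e-05).

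The label-specific changes of day 1 were few. Within WT 5 members changed (3 higher, 2 lower) beside 2.35% of all genes (1.44% and 0.913%), and within KO 0 changed beside 0.0211% of all genes, all of those higher (edgeR), with 9 members (9.38%) at an unadjusted p under 0.05 beside 10.2% of all genes. Over both labels, after 1 day of RANKL 10 of the 96 members changed, 6 higher and 4 lower, beside 7.44% of all tested genes (3.82% higher, 3.62% lower). The risers were Atox1, G3bp1, Havcr2, Hnrnpab, Nhp2 and Rad50, and those that fell were Galnt10, Gm12166, Phykpl and Rnf145. Of the 50-base stretches of Gm12166, 85.9% also occur in Sft2d1, so its counts may come from that gene. Atox1, a copper chaperone, rose from 65.3 ± 4.05 to 120 ± 26.1 CPM in WT and from 96.9 ± 2.35 to 118 ± 11.7 CPM in KO (log2 0.58, SE 0.0967, adjusted p = 0.00849), and on day 3 it did not pass (log2 0.15). Havcr2 rose by 1.12 on the log2 scale (SE 0.307, adjusted p = 0.0412) and Nhp2 by 0.67 (adjusted p = 0.0276). Rnf145, a sterol-regulated ubiquitin ligase, fell by 0.49 (SE 0.101, adjusted p = 0.0144). The count of 10 became 22 without WT day 1 library 1b, 19 without WT day 0 library 3 or with the title style as a covariate, and 3 without KO day 0 library 1, KO day 0 library 3 or WT day 1 library 1. The shares of all tested genes called in these fits are not given here, so the shifts say nothing particular to the members.

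An interaction term gives the change of the label difference between days, and so rests on the values that chose the stretch and is a description. For day 3 and for day 1 it called 0 of the 96 members and 0% of all tested genes (edgeR), with 12 and 9 members at an unadjusted p under 0.05 (12.5% and 9.38%, beside 5.4% and 3.7% of all genes), from which nothing is read. Tgtp1, for example, fell by 2.97 in WT and by 0.78 in KO on the log2 scale, a difference of 2.19 (SE 0.824). The label comparisons and the RANKL comparisons share the day 0 libraries.

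Per length, members differed widely in level. By FPKM, the highest in WT on day 0 were Anxa6 (109 ± 9.06), Sqstm1 (103 ± 8.62) and Gnb2l1, which codes for the ribosomal scaffold RACK1 (91.4 ± 22.5), with no gap beyond their spread. In KO on day 0 Gpx3, the secreted glutathione peroxidase, came first at 162 ± 37.6, ahead of Atox1 at 114 ± 7.21 and Anxa6 at 112 ± 3.96. On day 3 Sparc led at 290 ± 21.2 in WT and 780 ± 153 in KO, followed by Gnb2l1 at 202 ± 14.3 and 181 ± 38.7. Among the GTPases Ifi47 (46.9 ± 23.9) and Irgm1 (38.0 ± 18.2) stood highest in WT on day 0, Tgtp2 was at 12.1 ± 9.36 and Tgtp1 at 8.90 ± 7.63, and 9930111J21Rik2 was at 0.0706 ± 0.0214 in WT and 7.67 ± 3.04 in KO.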

How the data were processed

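RNA was purified on columns, sequencing libraries were prepared with a SMARTer kit for messenger RNA, and the authors deposited 1 table of whole-number counts and of FPKM values (computed by the authors with StringTie and Ballgown) for each gene and library. The submitters' processing notes name StringTie and the builds GRCm38.p4 and mm10, while the aligner and the counting program are not given in the sources used here. Columns with no sample numbered 0. Genes were placed by the positions in the table, and 93 of the 96 members had the same position in the GENCODE vM21 annotation of GRCm38. The members and gene lists were chosen with earlier results of these data known.

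Counts were fitted in R 4.3.3 with edgeR 4.0.16 (filterByExpr, TMM, glmQLFit, glmQLFTest) on all 18 libraries as 6 groups, with p-values adjusted by the Benjamini-Hochberg method over 14241 genes. The common dispersion was 0.09451. On simulated counts for 14241 genes, the fit called in the right direction 183 of 200 genes changed by 4-fold between the labels on day 3 (5 other genes called) and 198 of 200 changed by 4-fold by RANKL on day 3 (12 others). Every simulated gene had the same dispersion, so these shares do not hold for genes of wider spread. Tgtp1, 8.43-fold lower in KO on day 1, was not called. RANKL comparisons weigh both labels equally. Groups at 0 counts were given a floor of 3 counts in each library, and ratios of low counts were given exact 95% intervals. FPKM gave levels between genes and, as log2(FPKM + 0.1) and log2(FPKM + 1) in limma 3.58.1, alternatives. Other alternatives were DESeq2 1.42.0, no or a stricter filter (5 CPM in 3 libraries), only the groups compared, the title style, the replicate number as a block, the pair of WT day 1 libraries that share a number taken as their mean, the double-hyphen libraries left out, and libraries left out one at a time. Named genes were those called or not overlapping between the labels, the 5 with the greatest RANKL change in each direction above 1 CPM, and members of the lists. Deviations of same-number KO and WT libraries correlated at -0.391 to 0.318, and between days 0 and 3 at -0.0261 to 0.106 in WT but at 0.133, 0.142 and 0.403 in KO, and between days 0 and 1 at 0.0569, 0.503 and 0.597 in KO and -0.457 and 0.14 in WT. A block on the number was also fitted for the KO libraries of days 0 and 3 alone, a choice made after seeing the data. KO libraries 2 and 3 correlated more between days 0 and 1, and no such block was fitted there. Whether the numbers pair libraries is not known.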

Additional observations from a re-analysis of the deposited data

Results flagged for a closer look

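Nhp2 and Hint1 are flagged because their label difference pointed in opposite directions on 2 days in every library, so that KO and WT swapped order. How many of all tested genes swapped in this way was not counted. On days 0, 1 and 3 taken singly, 10.1%, 12.6% and 29.2% of all tested genes did not overlap between the labels, so nothing is read from the swaps. Nhp2 was higher in KO than in WT on day 0 (33.6 ± 2.78 against 28.3 ± 2.45 CPM) and lower on day 3 (53.3 ± 4.07 against 67.7 ± 3.76 CPM), a change of -0.60 in the log2 label difference that did not pass the interaction test (adjusted p = 0.921, edgeR). Hint1, a nucleotide-binding hydrolase, was higher in KO on day 0 (116 ± 7.37 against 95.8 ± 2.26 CPM) and lower on day 1 (115 ± 2.60 against 130 ± 6.66 CPM), a change of -0.45 (adjusted p = 1.0, edgeR).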

How the results depend on the processing

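The main label counts (6, 5 and 5 members on days 0, 1 and 3) moved with the fit. Except where a share is printed, counts in this section stand without the share of all tested genes called in the same fit. They do not show whether the members moved more than other genes. Fitting only the groups compared gave 2, 1 and 12, the DESeq2 Wald test 11, 9 and 13, leaving out the double-hyphen libraries (chosen after seeing the data) 2 on days 0 and 1, and no filter 3 on day 3. Leaving out each library gave 5 to 8 on day 0, 4 to 8 on day 1 (8 without WT day 1 library 1b) and 2 to 3 on day 3 (3 without WT day 3 library 2, 2 without each of the others). Calls were lost for Olfr56 in 8 of 17 alternatives on day 1 and 9 of 15 on day 3, for Slc36a1 in 7 of 16 on day 0, for Gm12220 in 6 of 14 on day 3 and for Galnt10 in 9 of 15. 9930111J21Rik2 was called on every day in every fit, and Slc22a4 in every one but 2, both on day 1 (only the groups compared, and without the double-hyphen libraries).

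For RANKL day 1 the count of 10 was 6 with no filter, 19 with the title style, 2 with only the groups compared, 17 by DESeq2 and 3 to 22 over left-out libraries (3 without library 1 or 3 of KO day 0 or library 1 of WT day 1, 4 without library 2 of WT day 0, 6 without library 1 of WT day 0, library 2 of WT day 1 or either of KO day 1 libraries 2 and 3, 19 when library 3 of WT day 0 was left out, 22 when library 1b of WT day 1 was). For day 3, 64 called became 53 to 72, 60 to 64 over left-out libraries, and the 27 higher became 42 in both FPKM fits. GTPase list members lower numbered 7 to 9. With the replicate number as a block the label counts were 6, 4 and 4, the RANKL counts 63 on day 3 and 8 on day 1, and no count moved by over 1.5 times. With the number of the KO day 0 and day 3 libraries as a block (chosen after seeing the data), 44 of the 96 members changed by RANKL within KO in place of 46. Of all tested genes 40.4% changed with that block in place of 42.5%.

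The label difference of Galnt10, near 0 on days 0 and 1, ran from -0.06 to 0.11 on day 0 over left-out libraries (-0.06, -0.01 and -0.02 without KO 1, KO 3 and WT 1) and from -0.01 (without WT 1) to 0.17 on day 1. The RANKL change of Olfr56 ran from -1.27 to 0.74, the last without WT day 0 library 2, which holds its only WT counts of that day. Causes were not tested. Counts of 0 to 10 in single libraries limit Olfr56, Slc36a2 and Gm12220, and counts of 2 to 14 in WT limit the folds of 9930111J21Rik2.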
